A study of Rattus norvegicus with 12 samples.

Results

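Genes of sterol and fatty acid synthesis were followed through RNA-seq of 12 libraries from primary rat nucleus pulposus cells, the cells of the gelatinous core of the intervertebral disc. The members were 30 genes given by symbol, and 28 of them had a row in all 3 deposited tables, of 12899 genes listed in all 3. Elovl6 and Scd had no row under those names and were not analysed here. A row named Scd1, an older symbol of the same desaturase gene in the RefSeq gene table, is not counted as a member. It held 10.0 to 181 normalised reads and passed no test between groups. The 28 members fall into 7 enzymes of the mevalonate arm, 11 of the squalene and sterol arm, 4 genes of sterol sensing and transport, and 6 of fatty acid synthesis and desaturation. All 28 had a mean of at least 10 normalised reads in each of the 5 comparisons, so none was lost to the filter on low values.

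The cells came from Wistar rat spines, were grown out of tissue pieces in serum-containing medium, and were transduced with lentivirus. The 4 groups of 3 libraries were shTon_TNF (an shRNA against TonEBP, the osmotic stress factor encoded by Nfat5, with 50 ng/mL TNF-a for 24 h), shTon_CTR (the same shRNA, untreated), PLKO_TNF (the control shRNA vector with TNF-a) and PLKO_CTR (the control vector, untreated). Each group had 1 library from each of 3 numbered sets, and the sets served as blocks. The labels do not say that the sets are separate animals. The p-values between groups thus measure how far the group differences vary from set to set, which may be technical. No source used here gives the age or sex of the rats, or says whether animals were pooled. All libraries share the lentiviral transduction and the serum, so no group shows untransduced cells.

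As background, cholesterol is built from acetyl-CoA through mevalonate, farnesyl diphosphate, squalene and lanosterol, and fatty acids are built from the same acetyl-CoA pool through malonyl-CoA. Most enzymes of both routes are under the SREBP transcription factors, encoded by Srebf1 and Srebf2, which the INSIG proteins hold in the endoplasmic reticulum when sterols are plentiful. In a cultured cell fed with serum, lipoprotein cholesterol from the medium also feeds into this control.

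Levels are normalised reads, that is, reads divided by the library's size factor, with the 12 factors estimated jointly. They carry no correction for gene length, so levels are compared between libraries and not between genes. The libraries held 7160042 to 18645538 reads in listed genes. Nfat5, the target of the shRNA, had 1695, 499.7 and 232 normalised reads in shTon_TNF and 458, 457 and 288 in shTon_CTR, against 642, 1092 and 483 in PLKO_TNF and 685, 1363 and 1818 in PLKO_CTR. The shTon_TNF library of set 1 had more Nfat5 than any PLKO_TNF library and so goes against its label. The log2 fold changes of the members that rest on it are given without set 1 as well, those for knockdown with TNF-a together after the role groups. Of 14 nucleus pulposus and notochord markers, 6 had values, among them the keratin gene Krt8 and the carbonic anhydrase gene Car3, and their sum was 1570.1 to 9552 in shTon_TNF, 2418 to 14009 in shTon_CTR, 1688 to 6981 in PLKO_TNF and 2699 to 9387 in PLKO_CTR. The other 8, among them the matrix genes Acan and Col2a1 and the notochord factors T and Shh, had no row under those names and were not analysed here, so the labelled cell type was not checked against them. All 12 skeletal muscle markers had values, and their sum was 42215 to 97895 in set 1, 16419 to 29962 in set 2 and 162 to 254 in set 3. In bulk RNA, fewer cells of a type and less RNA per cell cannot be told apart.

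Promoters are shown for Cyp51, Msmo1 and Insig1, which are 3 of the 6 members with lower values in shTon cells of every set, with and without TNF-a. The others, Acat2, Pmvk and Sc5d, are not shown. The promoter of Acss2, the member that TNF-a lowered, is shown as well. Each is the stretch of 250 bases upstream of the start in the RefSeq promoter table of rat build GRCr8, written 5′ to 3′ on the gene's strand. Capitals mark CCAAT, the NF-Y box, and GGGCGG, the Sp1 box, searched on both strands, so that ATTGG and CCGCCC are their reverse complements.
Cyp51 (chr4:30991443-30991692, plus strand): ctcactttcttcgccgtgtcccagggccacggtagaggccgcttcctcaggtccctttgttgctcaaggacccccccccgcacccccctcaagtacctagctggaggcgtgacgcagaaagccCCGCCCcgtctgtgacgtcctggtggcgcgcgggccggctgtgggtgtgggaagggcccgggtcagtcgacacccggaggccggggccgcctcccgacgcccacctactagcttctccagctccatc
Msmo1 (chr16:29746863-29747112, plus strand): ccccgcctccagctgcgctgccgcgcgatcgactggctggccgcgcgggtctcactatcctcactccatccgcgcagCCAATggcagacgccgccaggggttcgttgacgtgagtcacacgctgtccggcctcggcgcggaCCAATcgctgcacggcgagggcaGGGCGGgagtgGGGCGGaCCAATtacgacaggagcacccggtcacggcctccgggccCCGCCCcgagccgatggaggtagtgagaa
Insig1 (chr4:8057770-8058019, minus strand): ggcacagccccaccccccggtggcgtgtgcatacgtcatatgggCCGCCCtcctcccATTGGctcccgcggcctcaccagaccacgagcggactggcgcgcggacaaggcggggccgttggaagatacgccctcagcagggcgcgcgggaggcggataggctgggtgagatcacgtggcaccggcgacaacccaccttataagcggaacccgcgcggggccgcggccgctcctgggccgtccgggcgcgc
Acss2 (chr3:164464453-164464702, plus strand): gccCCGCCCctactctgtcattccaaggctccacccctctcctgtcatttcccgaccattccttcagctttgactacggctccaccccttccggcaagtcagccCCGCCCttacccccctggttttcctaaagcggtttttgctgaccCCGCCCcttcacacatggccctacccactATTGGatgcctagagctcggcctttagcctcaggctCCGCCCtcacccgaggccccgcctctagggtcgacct

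The table held 23 promoters for 22 of the 28 members, since Srebf1 has 2 listed starts. CCAAT was in 19 of the 23 (82.6%), against 34.0% of all 33469 promoters and 35.1% of the 9825 promoters of genes tested here. GGGCGG was in 21 of the 23 (91.3%), against 30.5% of all promoters and 58.6% of those of genes tested. The letters TCACNCCAC, one form of the sterol regulatory element bound by the SREBPs, were in 0 of the 23 and in 0.974% of all promoters. TGGAAA, the core of the site bound by TonEBP, was in 3 of the 23, those of Tm7sf2, Fads2 and Ebp, against 19.7% of all promoters and 14.2% of those of genes tested. Motifs can share end letters, as where ATTGG runs into TGGAAA, and each was counted on its own. The Cyp51 window held 1 GGGCGG and 0 CCAAT, whereas the Msmo1 window held 3 of each, the Insig1 window 1 of each, and the Acss2 window 4 GGGCGG and 1 CCAAT. A match describes letters only and is not evidence of binding.

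TonEBP knockdown left no member past the threshold, and TNF-a lowered 1, Acss2. The threshold was an adjusted p of 0.05 in limma (Benjamini-Hochberg adjustment over all genes tested), and each fold change is the difference of log2(value + 1). With TNF-a in PLKO cells, 1 of 28 members was called, against 1190 of 12373 genes tested (9.62%), in both directions. With TNF-a in shTon cells, 0 of 28 were called, against 405 of 12339 genes (3.28%). Knockdown without TNF-a called 0 members and 14 of 12383 genes (0.113%), and knockdown with TNF-a called 0 members and 31 of 12213 genes (0.254%). In the authors' deposited tables Nfat5 itself had log2 fold changes of -1.19 (authors' adjusted p = 4.57e-05) without TNF-a and -0.03 (authors' adjusted p = 0.987) with it. With all sets, the knockdown comparison with TNF-a thus does not show lower Nfat5. edgeR and DESeq2 called Acss2 alone among the members for TNF-a in PLKO cells, and 0 members for TNF-a in shTon cells and for knockdown with or without TNF-a. For these comparisons the totals of edgeR over all genes are not given here, nor that of DESeq2 for TNF-a in PLKO cells. These member counts therefore have no share of all genes beside them. The interaction of TNF-a and knockdown called 0 of 12310 genes (0%) and 0 members by limma. For the interaction edgeR and DESeq2 also called 0 genes, and limma gave an unadjusted p under 0.05 to 219 genes (1.78%), of which 0 were members. The estimated differences between the TNF-a responses of shTon and PLKO cells ran from -0.44 ± 0.50 for Tm7sf2 to 0.53 ± 0.41 for Ebp (log2, SE). Without set 1 they ran from -0.53 for Tm7sf2 to 0.92 for Ebp, again with 0 members called.

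The sizes of the differences are small throughout. The median log2 fold change of the 28 members was 0.01 for TNF-a in PLKO cells, where that of all genes was -0.01, and 0.01 for TNF-a in shTon cells, where that of all genes was -0.01. Without set 1 it was 0.07 in PLKO cells and 0.08 in shTon cells. It was -0.27 for knockdown without TNF-a and -0.25 for knockdown with TNF-a, where that of all genes was 0.01 and 0.02. In the knockdown comparison without TNF-a, 22 of 28 members were lower by value, against 49.0% of all genes, and with TNF-a 22 of 28 were lower, against 47.6%. An unadjusted p under 0.05 was reached by 11 members in the knockdown without TNF-a (17.0% of all genes reached it) and by 2 in the knockdown with TNF-a (17.0%). For TNF-a it was reached by 4 members in PLKO cells (29.0% of all genes) and by 6 in shTon cells (18.8%).

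**Figure D1:**
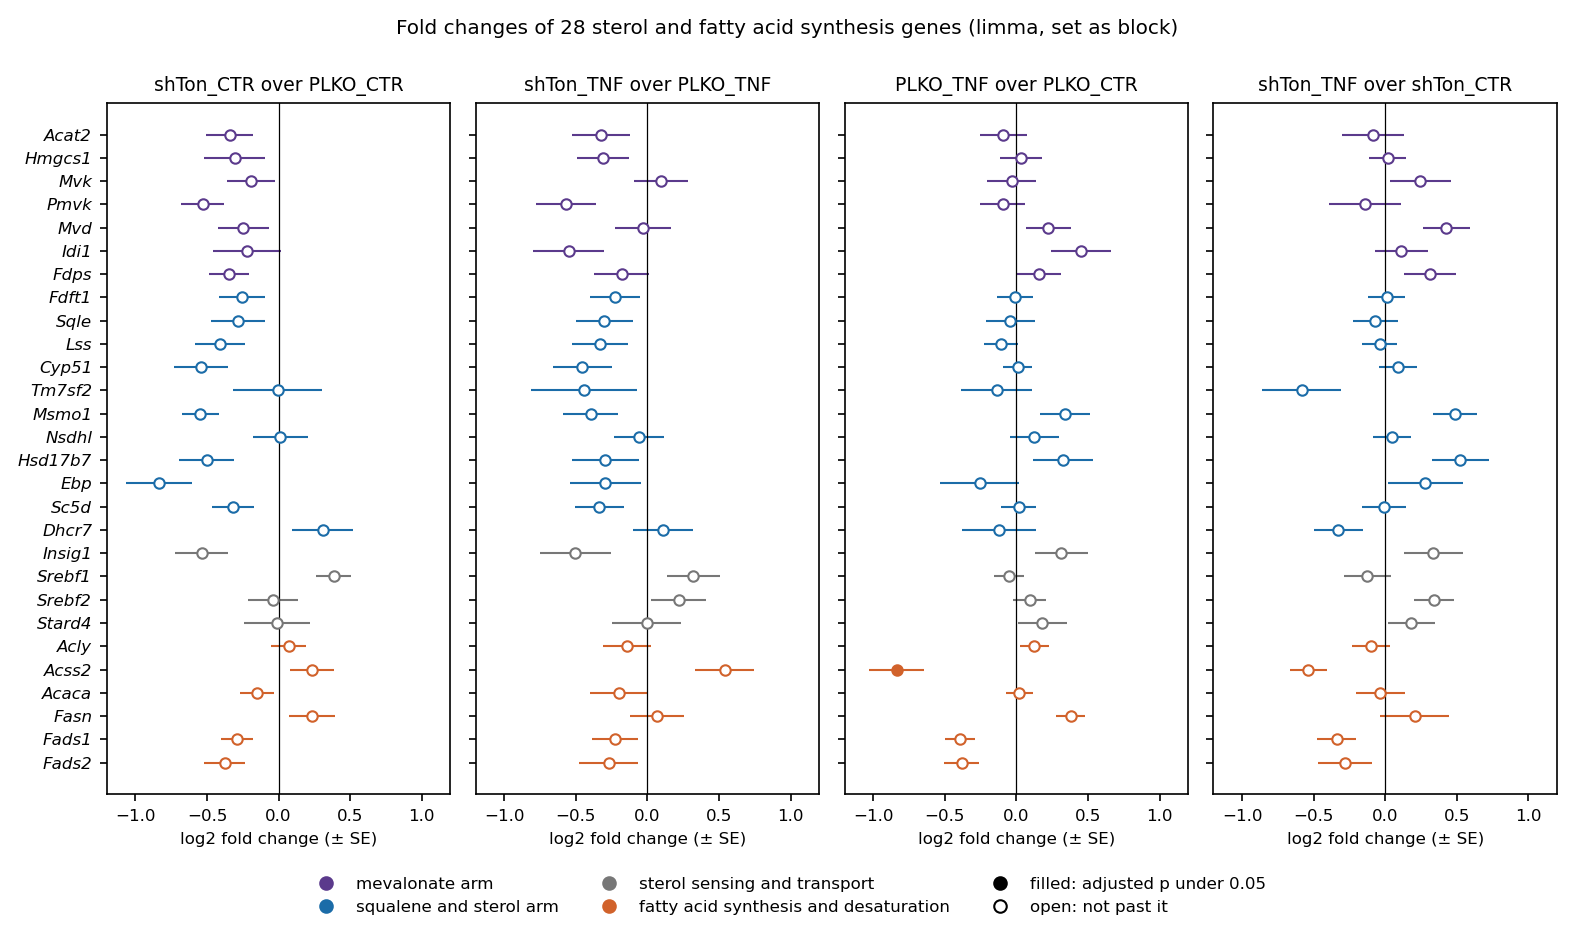
Log2 fold change (± SE, limma with the set as block, 3 libraries a group) of each of the 28 genes, grouped by role, in the 4 pairwise comparisons, with filled points for an adjusted p under 0.05. Acss2 with TNF-a in PLKO cells, at -0.84, is the single filled point, and most sterol enzymes lie left of 0 in both knockdown panels.

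In the mevalonate arm, all 7 enzymes were lower by value in the knockdown without TNF-a (log2 fold changes -0.53 to -0.19) and 6 of 7 in the knockdown with TNF-a (-0.57 to 0.09), with 0 past the threshold in either. Hmgcs1, which makes HMG-CoA, had 1088, 1037 and 1585 normalised reads in shTon_TNF and 1263, 968 and 1413 in shTon_CTR, against 1049.6, 1667 and 1977 in PLKO_TNF and 1180.3, 1914 and 1438 in PLKO_CTR. The groups overlapped in every comparison. Its log2 fold change was -0.31 ± 0.21 (SE, adjusted p = 0.492) for knockdown without TNF-a and -0.31 ± 0.18 (adjusted p = 0.424) with it. Pmvk, the kinase that makes mevalonate diphosphate, had 142, 117 and 251 normalised reads in shTon_TNF and 217, 156 and 165 in shTon_CTR, against 219.8, 215 and 292 in PLKO_TNF and 282, 245 and 242 in PLKO_CTR. It was lower in shTon than in PLKO cells of the same set in 3 of 3 sets without TNF-a, where the groups did not overlap, and in 3 of 3 sets with TNF-a, where they did. Its log2 fold change was -0.53 ± 0.15 (adjusted p = 0.156) without TNF-a and -0.57 ± 0.21 (adjusted p = 0.236) with it. Here and below, most members with values per library were chosen for a small p, which makes groups without overlap likely. The share of all genes without overlap is not given.

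Fdps, which makes farnesyl diphosphate, the branch point towards sterols and prenylated proteins, had 1189.7, 1394 and 2211 normalised reads in shTon_TNF and 1260.4, 1197 and 1261 in shTon_CTR, against 1231, 2222 and 1967 in PLKO_TNF and 1476, 1917 and 1371 in PLKO_CTR. Without TNF-a the 3 shTon values lay below the 3 PLKO values, and with TNF-a the groups overlapped. Knockdown without TNF-a gave it a log2 fold change of -0.35 ± 0.14 (adjusted p = 0.281). Idi1, which interconverts the isoprene units, had 148, 153 and 204 normalised reads in shTon_TNF and 177, 132 and 157 in shTon_CTR, against 170.4, 361 and 241 in PLKO_TNF and 188, 242 and 127 in PLKO_CTR. Its highest value was the PLKO_TNF library of set 2. For knockdown with TNF-a its log2 fold change was -0.55 ± 0.25 (adjusted p = 0.315), and it was lower in 3 of 3 sets. Acat2, the thiolase that joins acetyl-CoA units, was also lower in shTon cells in 3 of 3 sets with and without TNF-a, at log2 fold changes of -0.33 and -0.34. Mvk, the mevalonate kinase, and Mvd, the decarboxylase that follows Pmvk, had log2 fold changes of -0.19 and -0.25 without TNF-a and 0.09 and -0.03 with it.

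In the squalene and sterol arm, 9 of 11 enzymes were lower by value in the knockdown without TNF-a (-0.84 to 0.31) and 10 of 11 in the knockdown with TNF-a (-0.45 to 0.11), again with 0 past the threshold. Msmo1, the methylsterol monooxygenase, had 1181, 1639.6 and 1803 normalised reads in shTon_TNF and 1080.5, 1118 and 1053 in shTon_CTR, against 1290.4, 3028 and 2049 in PLKO_TNF and 1506, 1940.0 and 1349 in PLKO_CTR. Without TNF-a the shTon values were close together and below every PLKO value. Its log2 fold change for knockdown without TNF-a was -0.55 ± 0.13 (adjusted p = 0.119), the smallest adjusted p of a member in that comparison. Without set 3 it was -0.64 (adjusted p = 0.0375), in a fit that called 1.78% of all genes. Without sets 1 and 2 in turn it was -0.58 and -0.42 (adjusted p = 0.0991 and 0.55). With TNF-a the knockdown gave -0.39 ± 0.19 (adjusted p = 0.345). Cyp51, the lanosterol demethylase, had 780.0, 591 and 987 normalised reads in shTon_TNF and 801, 586 and 804 in shTon_CTR, against 938, 1201 and 1049 in PLKO_TNF and 962, 1283 and 938 in PLKO_CTR. The shTon_CTR values lay below the PLKO_CTR values, and those of shTon_TNF overlapped with PLKO_TNF. The log2 fold change of Cyp51 was -0.54 ± 0.19 (adjusted p = 0.22) without TNF-a and -0.45 ± 0.21 (adjusted p = 0.315) with it.

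Ebp, the sterol isomerase, had 77.9, 87.4 and 109 normalised reads in shTon_TNF and 97.97, 72.0 and 58.6 in shTon_CTR, against 114, 79.0 and 155 in PLKO_TNF and 121, 168 and 118 in PLKO_CTR. The shTon_CTR values lay below the PLKO_CTR values, and the TNF-a groups overlapped. Its log2 fold change of -0.84 ± 0.23 for knockdown without TNF-a was the lowest of any member in that comparison (adjusted p = 0.149), and with TNF-a it was -0.29 ± 0.25 (adjusted p = 0.579). Hsd17b7, a ketosterol reductase, and Lss, the lanosterol synthase, had log2 fold changes of -0.50 and -0.41 without TNF-a, and -0.30 and -0.33 with it. Sc5d, the sterol desaturase, was lower in shTon cells in 3 of 3 sets both without TNF-a (-0.32) and with it (-0.34). Fdft1, the squalene synthase, and Sqle, the squalene epoxidase, had -0.25 and -0.28 without TNF-a and -0.23 and -0.30 with it. Nsdhl, a sterol dehydrogenase, had 0.01 and -0.06. Tm7sf2, a sterol reductase, had few reads, 18.1 to 63.8 normalised reads per library, and its standard errors were the widest of the arm, at 0.31 and 0.37 in the knockdown comparisons. Dhcr7, the reductase of the last step to cholesterol, was the one enzyme of the arm with a higher value in both (0.31 and 0.11).

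**Figure D2:**
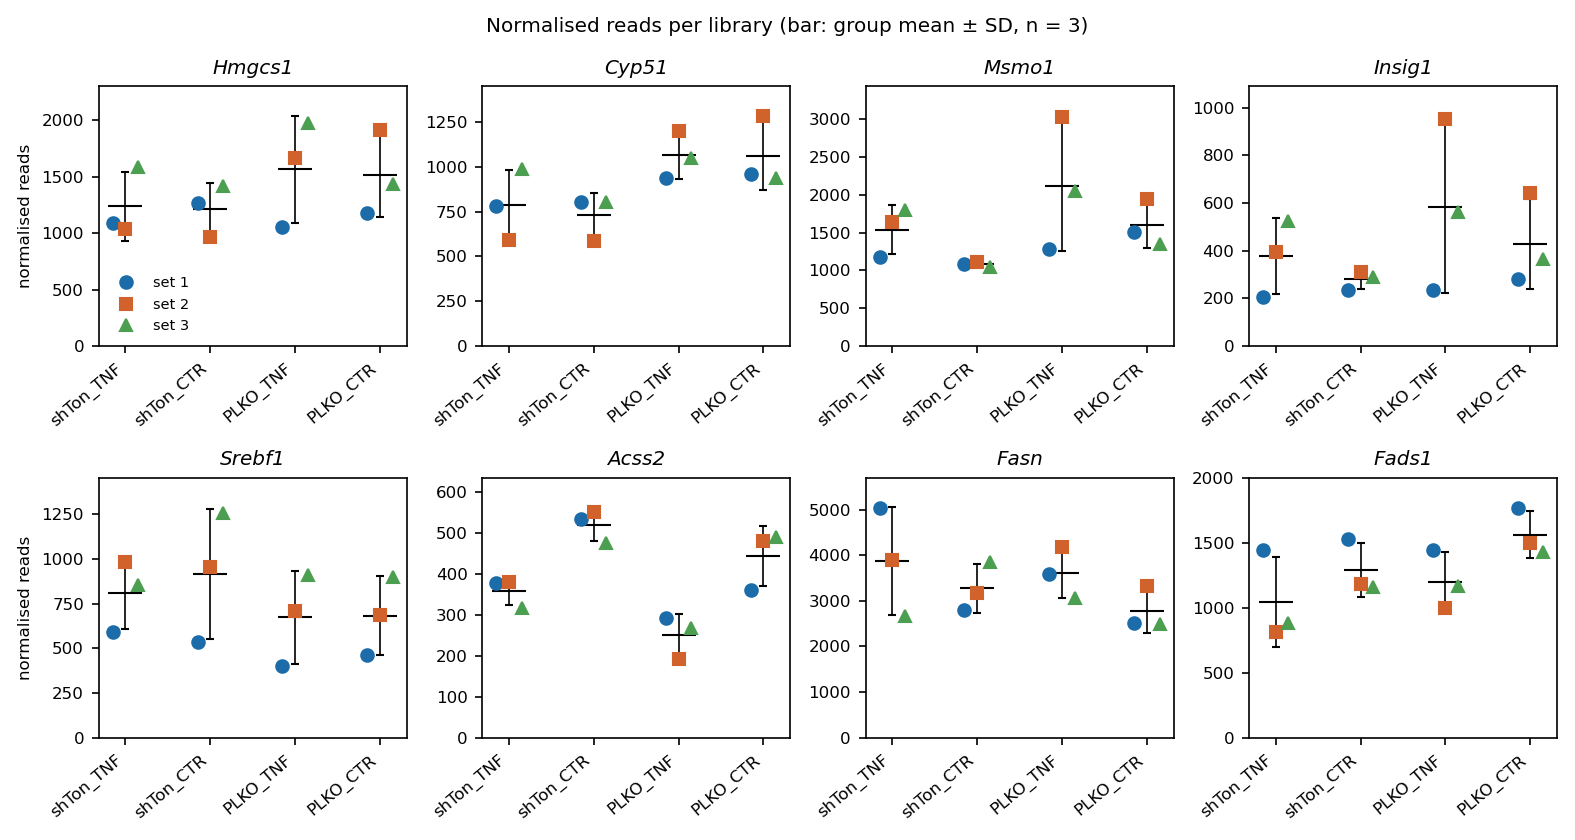
Normalised reads of 8 genes in each of the 12 libraries, by group, with the set shown by symbol and bars for the group mean ± SD (n = 3). For Msmo1 and Cyp51 the 3 shTon_CTR libraries lie below the 3 PLKO_CTR libraries, and for Acss2 both TNF-a groups lie below their untreated groups.

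Among the sensing genes, Insig1, which holds the SREBPs back and is itself an SREBP target, had 208, 397 and 525 normalised reads in shTon_TNF and 237, 312 and 290.2 in shTon_CTR, against 234, 954 and 560.4 in PLKO_TNF and 279, 640.1 and 364 in PLKO_CTR. It had the largest range of the members across the 12 libraries, 4.59-fold, and its 2 highest values were PLKO libraries of set 2. It was lower in shTon cells in 3 of 3 sets in both knockdown comparisons, at log2 fold changes of -0.54 ± 0.19 (adjusted p = 0.213) without TNF-a and -0.50 ± 0.25 (adjusted p = 0.351) with it. Without set 2 these were -0.28 (adjusted p = 0.787) and -0.13 (adjusted p = 0.961). Srebf1 had 592, 982 and 854 normalised reads in shTon_TNF and 534, 957 and 1257 in shTon_CTR, against 399, 707 and 912 in PLKO_TNF and 462, 688 and 899.9 in PLKO_CTR. It was higher in shTon cells in 3 of 3 sets without TNF-a, by 0.38 ± 0.12 (adjusted p = 0.19), and in 2 of 3 with TNF-a, by 0.32 ± 0.18 (adjusted p = 0.421), opposite in sign to most sterol enzymes. Srebf2 had 1212, 1108 and 1298 normalised reads in shTon_TNF and 803, 902 and 1184 in shTon_CTR, against 746, 1162 and 1284 in PLKO_TNF and 646, 1305 and 1089 in PLKO_CTR. The knockdown log2 fold change of Srebf2 was -0.04 ± 0.17 (adjusted p = 0.938) without TNF-a and 0.22 ± 0.19 (adjusted p = 0.598) with it. Stard4, which carries cholesterol between membranes, had -0.01 in both.

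The one member that passed the threshold was in the fatty acid group. Acss2, which makes acetyl-CoA from acetate, had 378, 380.0 and 318 normalised reads in shTon_TNF and 534, 551 and 475 in shTon_CTR, against 291, 191 and 268 in PLKO_TNF and 360.4, 479.9 and 491 in PLKO_CTR. Every TNF-a library was below every untreated library of the same shRNA, and the lowest value of all was the PLKO_TNF library of set 2. In PLKO cells Acss2 fell by 0.84 ± 0.19 on the log2 scale (SE, adjusted p = 0.0433). The call rests on set 2 and on the settings of the test. It was lost without the set as a block (adjusted p = 0.609), without the mean-variance trend (adjusted p = 0.126) and with a pseudocount of 0.1 (adjusted p = 0.0523). Without set 2 the log2 fold change was -0.59 (adjusted p = 0.141), and without sets 1 and 3 in turn it was -1.10 and -0.82 (adjusted p = 0.0192 and 0.0276). In shTon cells the TNF-a difference was -0.54 ± 0.13 (adjusted p = 0.0762), or -0.56 (adjusted p = 0.0505) without set 1, lower in 3 of 3 sets but past the threshold in neither fit. The difference between the responses in shTon and PLKO cells was 0.30 ± 0.27 (adjusted p = 0.999), or 0.54 without set 1. Under knockdown with TNF-a, Acss2 was higher by value in 3 of 3 sets, at 0.54 ± 0.21 (adjusted p = 0.248).

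Fads1 and Fads2, the desaturases of polyunsaturated fatty acids, were lower with TNF-a in 3 of 3 sets of PLKO cells. Fads1 had 1447, 814 and 881 normalised reads in shTon_TNF and 1531, 1183 and 1158 in shTon_CTR, against 1446, 997 and 1166 in PLKO_TNF and 1770.5, 1501 and 1428 in PLKO_CTR. Its log2 fold change with TNF-a was -0.39 ± 0.11 in PLKO cells (adjusted p = 0.0617) and -0.34 ± 0.14 in shTon cells (adjusted p = 0.247). In PLKO cells the groups overlapped at a single pair, since the set 1 library with TNF-a lay just above the set 3 library without it. Fads2 gave -0.38 (adjusted p = 0.091) in PLKO cells and -0.28 (adjusted p = 0.473) in shTon cells. Without set 1 the shTon values were -0.47 for Fads1 and -0.35 for Fads2. Fasn, the fatty acid synthase, had 5032, 3909 and 2669 normalised reads in shTon_TNF and 2801, 3170.0 and 3859.9 in shTon_CTR, against 3600.3, 4174 and 3061 in PLKO_TNF and 2526, 3329 and 2484 in PLKO_CTR. It was higher with TNF-a in 3 of 3 sets of PLKO cells, by 0.38 ± 0.10 (adjusted p = 0.0594), and in 2 of 3 sets of shTon cells, by 0.20 ± 0.24 (adjusted p = 0.7). Its highest value was the shTon_TNF library of set 1, and without set 1 the value in shTon cells turned to -0.11. Acly, which makes cytosolic acetyl-CoA from citrate, and Acaca, the acetyl-CoA carboxylase, had log2 fold changes with TNF-a of 0.12 and 0.02 in PLKO cells and -0.10 and -0.03 in shTon cells, where without set 1 they were -0.08 and -0.24.

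Of 9 adipocyte markers, 4 had values (Cidec, Pparg, Cfd and Cebpa), and their sum was 51.1 to 65.1 normalised reads in shTon_TNF, 74.4 to 86.4 in shTon_CTR, 38.4 to 41.4 in PLKO_TNF and 35.4 to 59.0 in PLKO_CTR. Their part in the fatty acid values was not tested. The authors' deposited table for TNF-a in PLKO cells likewise called 1 of the 28 members, Acss2, with a log2 fold change of -0.73 and an adjusted p of 0.00493, among 1339 of 13373 genes (10.0%). The authors' deposited tables called 0 members for knockdown without TNF-a, among 406 of 13305 genes (3.05%), and 0 for knockdown with TNF-a, among 371 of 13176 genes (2.82%). Unlike the limma shares, which are over genes tested, the authors' shares are over all listed genes. Of these, 2006 had no adjusted p for TNF-a in PLKO cells, 1996 for knockdown without TNF-a and 1977 with it. Of the sterol genes, Msmo1 for knockdown without TNF-a had the authors' smallest adjusted p. It was 0.0542 at a log2 fold change of -0.49 in the authors' deposited table.

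The knockdown differences of the sterol enzymes were largest in set 2. Within sets 1, 2 and 3, the median log2 ratio of shTon_CTR over PLKO_CTR for the 18 enzymes of both arms was -0.12, -0.63 and -0.16, with 14, 18 and 13 of 18 lower. The median ratio of shTon_TNF over PLKO_TNF was -0.06, -0.62 and -0.19, with 11, 15 and 14 lower. For these 18 enzymes the sign of the median was the same in all 6 set ratios. The 6 ratios include set 1 with TNF-a, whose shTon_TNF library goes against its label. There the median of the 28 members was 0.02, with 13 of 28 lower. Of all genes, 48.0% to 50.0% were lower in each ratio. In both comparisons set 2 held the lowest median. Without set 2 the median of the 28 members was -0.11 for knockdown without TNF-a and -0.08 with it. Without set 1, which holds the shTon_TNF library that goes against its label, the median was -0.38 for knockdown with TNF-a and -0.35 for knockdown without it. With TNF-a and without set 1, 24 of 28 members were lower by value (48.7% of all genes were) and 0 passed the threshold (4.04% of all genes did). The summed skeletal muscle markers were higher by value in shTon than in PLKO cells in 2 of 3 sets with TNF-a and in 3 of 3 without it. They were 254 to 81077 normalised reads in shTon_TNF and 242 to 97895 in shTon_CTR, against 162 to 42215 in PLKO_TNF and 184 to 53805 in PLKO_CTR. The 2 of 8 macrophage markers with values (Cd68 and Cd14) summed to 299.8 to 677 in shTon_TNF and 252 to 524 in shTon_CTR, against 186 to 293 in PLKO_TNF and 277 to 346 in PLKO_CTR. Of 6 endothelial markers only Tek had values, of 6.05 to 37.7. The part of these cells in the sterol values was not tested.

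Left without set 1, the knockdown log2 fold changes with TNF-a in the mevalonate arm were -0.43 for Acat2, -0.50 for Hmgcs1, 0.10 for Mvk, -0.54 for Pmvk, -0.11 for Mvd, -0.73 for Idi1 and -0.25 for Fdps. In the squalene and sterol arm they were -0.35 for Fdft1, -0.48 for Sqle, -0.46 for Lss, -0.55 for Cyp51, -0.41 for Tm7sf2 and -0.53 for Msmo1, and -0.14 for Nsdhl, -0.50 for Hsd17b7, -0.18 for Ebp, -0.45 for Sc5d and 0.19 for Dhcr7. The signs of the 18 enzymes were those of the fit with all sets. Among the other members they were -0.68 for Insig1, 0.19 for Srebf1, -0.03 for Srebf2 and -0.14 for Stard4, and 0.62 for Acss2, -0.15 for Fasn, -0.20 for Acly, -0.41 for Acaca, -0.35 for Fads1 and -0.46 for Fads2. Those of Srebf2 and Fasn changed sign. Without set 2, the knockdown values with and without TNF-a were -0.13 and -0.28 for Insig1, -0.17 and -0.25 for Cyp51, -0.15 and -0.42 for Msmo1, and -0.21 and 0.11 for Idi1. They were -0.13 and 0.03 for Hmgcs1, -0.52 and -0.65 for Ebp, and -0.42 and -0.47 for Pmvk. No member passed the threshold for knockdown without set 2, where 0.0971% of all genes did without TNF-a and 1.29% with it.

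Member by member, 14 of 28 were lower in shTon_CTR than in PLKO_CTR in 3 of 3 sets (20.2% of all genes were), and 9 of 28 were lower in shTon_TNF than in PLKO_TNF in 3 of 3 sets (19.8%). The pair of knockdown comparisons shares sets but no library. Of the 28 members, 20 were lower by value in both (71.4%), against 35.5% of all genes, and 15 of the 18 sterol enzymes were (83.3%). The sterol enzymes varied together, with a median Pearson r of 0.60 over their pairs (given below), so they do not count as separate observations. Their differences were largest in set 2 of both comparisons. In all 6 set ratios, 6 members were lower, against 11.4% of all genes. They were Acat2, Pmvk, Cyp51, Msmo1, Sc5d and Insig1, which include 2 enzymes of the mevalonate arm, 3 of the sterol arm and the sensor. The 6 ratios include set 1 with TNF-a, where Nfat5 itself had a log2 ratio of 1.41, so that ratio does not show a knockdown. Acss2 was the reverse, higher by value in 2 of 3 sets without TNF-a and in 3 of 3 with it.

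**Figure D3:**
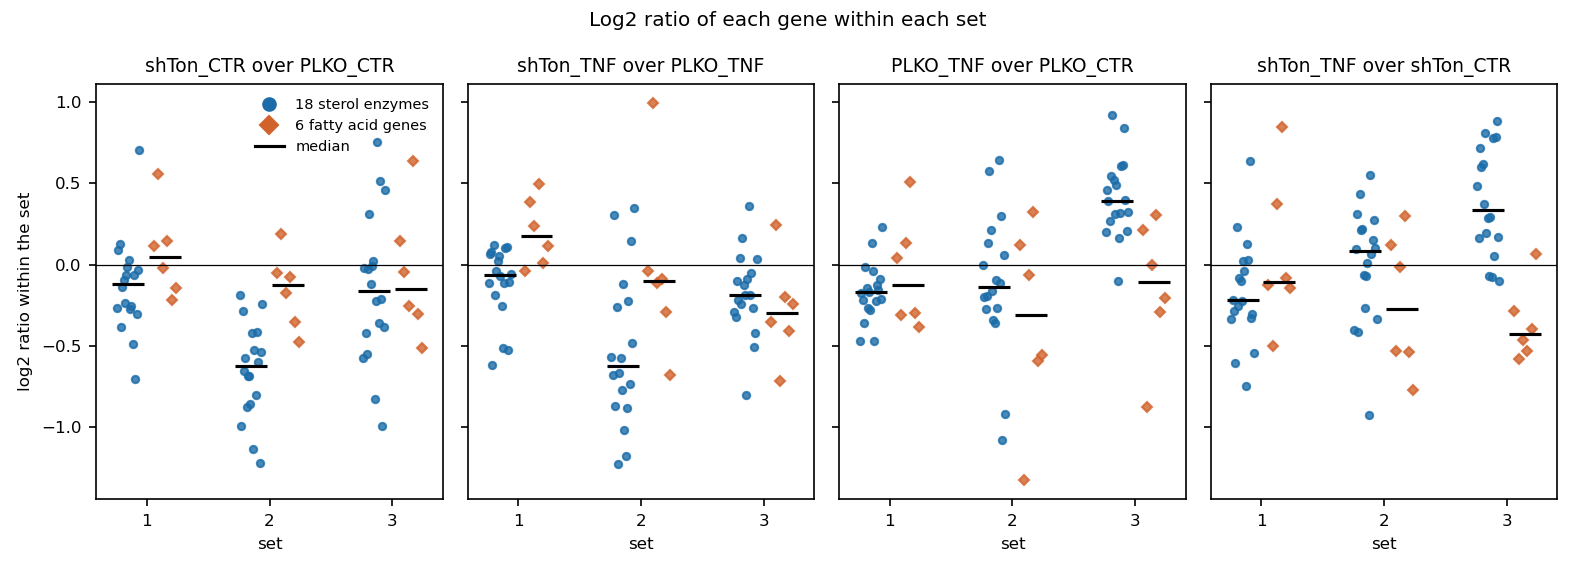
Log2 ratio of each gene between 2 groups within each of the 3 sets, for the 18 sterol enzymes and the 6 fatty acid genes, with the median as a bar. In both knockdown panels the sterol enzymes of set 2 lie lowest, with medians of -0.63 and -0.62, and in both TNF-a panels the median of the sterol enzymes is below 0 in set 1 and above 0 in set 3.

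With TNF-a, the median ratios of the sterol enzymes had opposite signs in sets 1 and 3, though not those of every enzyme. In PLKO cells all 7 enzymes of the mevalonate arm were lower with TNF-a in set 1 (median log2 ratio -0.22), and all 7 were higher in set 3 (0.46), with -0.00 in set 2. Of the 18 sterol enzymes, 16 were lower in set 1, 12 in set 2 and 1 in set 3. In shTon cells 13 were lower in set 1, 7 in set 2 and 3 in set 3, with medians of -0.22, 0.08 and 0.33. The set 1 ratio in shTon cells rests on the shTon_TNF library whose Nfat5 goes against its label. In PLKO cells 0 of the 18 were lower and 0 higher in 3 of 3 sets, where 26.6% and 25.3% of all genes were. In shTon cells 2 of the 18 were lower and 4 higher in 3 of 3 sets, where 22.6% and 19.9% of all genes were. With 1 library per group in a set, the difference between sets was not tested. The 2 TNF-a comparisons use the same sets. Without set 1, 4 of 28 members passed the threshold for TNF-a in PLKO cells (11.5% of all genes did). They were Acss2, Idi1 at 0.75 (adjusted p = 0.0459), Msmo1 at 0.62 (adjusted p = 0.0243) and Insig1 at 0.60 (adjusted p = 0.033). The fit with all sets gave 0.45, 0.34 and 0.31 for these last 3. Without set 2 none of the 28 passed it in PLKO cells (4.40% of all genes did), and without set 3 only Acss2 did (7.85%). For TNF-a in shTon cells, 2 of 28 passed it without set 1 (9.05% of all genes did), Msmo1 at 0.66 (adjusted p = 0.011) and Insig1 at 0.60 (adjusted p = 0.0428), where the fit with all sets gave 0.49 and 0.34. Without set 2 or set 3, 0 of 28 passed it in shTon cells (2.96% and 2.57% of all genes did).

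Levels also differed among the sets themselves. Over all 12 libraries with the group as a covariate, limma called 8 of 28 members (adjusted p under 0.05) for a difference among sets, against 45.4% of all genes. They were Fdft1, Lss, Hsd17b7, Sc5d, Insig1, Srebf1, Srebf2 and Fads1, and 0 of the 7 enzymes of the mevalonate arm were among them. Srebf1 had a mean of 981 ± 186 over the set 3 libraries, 833 ± 158 over those of set 2 and 497 ± 84.2 over those of set 1 (normalised reads, SD, n = 4 each, adjusted p = 0.000396 in limma). The means of Lss were 811 ± 259.7 (set 3), 684 ± 108 (set 2) and 431 ± 17.7 (set 1, adjusted p = 0.0035 in limma). Fads1 ran the other way, with 1159 ± 223 in set 3, 1124 ± 293 in set 2 and 1549 ± 153 in set 1 (adjusted p = 0.00768 in limma). The summed skeletal muscle markers given above were ordered opposite to Srebf1, and the 8 fibroblast markers, all with values, summed to 58196 to 110488 in set 1, 95815 to 191589 in set 2 and 29983 to 44512 in set 3. Their part in the set differences was not tested.

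**Figure D4:**
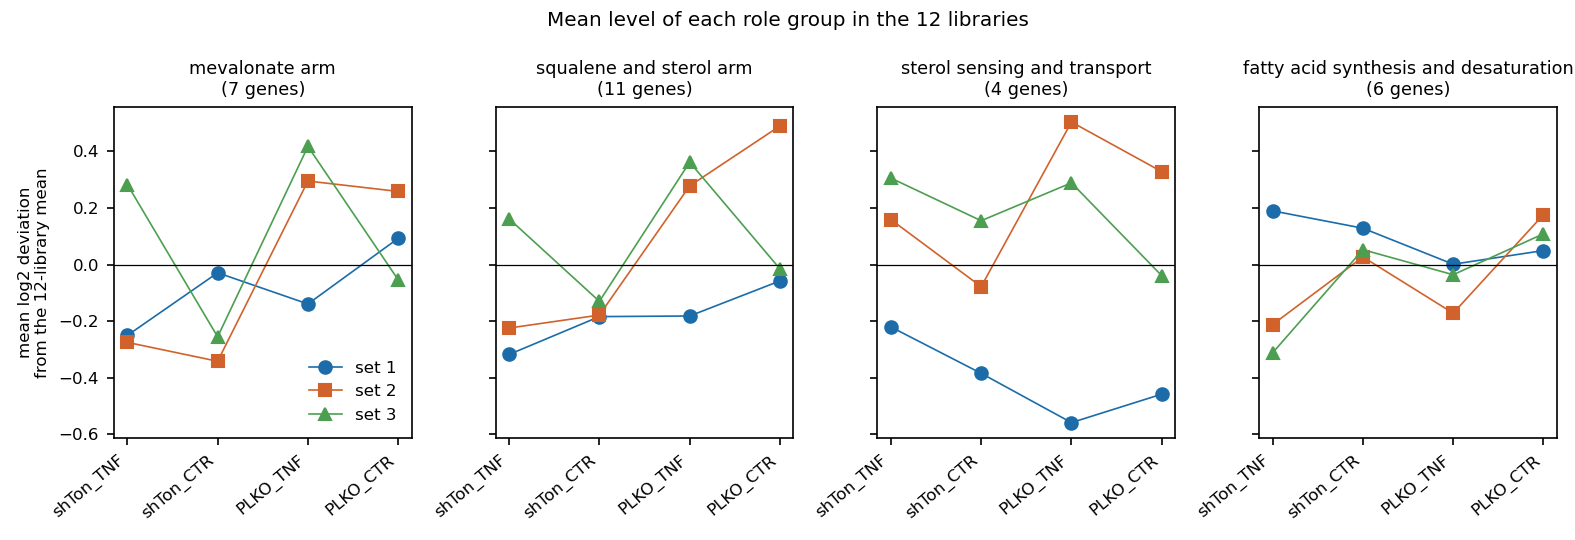
Mean log2 deviation from the 12-library mean for each role group in each library, with a line per set. The squalene and sterol arm ran from -0.32 to 0.16 in shTon_TNF and from -0.18 to -0.13 in shTon_CTR. It ran from -0.18 to 0.36 in PLKO_TNF and from -0.06 to 0.49 in PLKO_CTR.

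The sterol enzymes varied together from library to library. Their mean log2 deviation from the 12-library mean was -0.29, -0.24 and 0.21 in shTon_TNF (sets 1 to 3) and -0.12, -0.24 and -0.18 in shTon_CTR, against -0.17, 0.28 and 0.38 in PLKO_TNF and 0.00, 0.40 and -0.03 in PLKO_CTR. After each set's mean was taken out, the median Pearson r over the 153 pairs of sterol enzymes was 0.60 across the 12 libraries, and 91.5% of the pairs were positive, against a median of -0.02 between a sterol enzyme and any other gene tested. Left without sets 1, 2 and 3 in turn, the median of the pairs over the remaining 8 libraries was 0.65, 0.58 and 0.64. The points share libraries, groups and size factors, so these values are a description and carry no test. The 15 pairs of fatty acid genes had a median r of 0.23, and the sterol enzymes with the fatty acid genes 0.02.

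With all sets, closest to the mean of the other sterol enzymes were Fdft1 (r = 0.95), Sqle and Hmgcs1 (0.92 each), and Insig1, which is no enzyme of the route, had 0.90. Dhcr7 (-0.05) and Lss (0.33) were furthest from it with all sets. Without sets 1, 2 and 3 in turn, Dhcr7 had -0.01, -0.10 and -0.07, the lowest enzyme each time, and Lss had 0.36, 0.13 and 0.68. Srebf1 ran opposite, at -0.78, or -0.88 without set 1, -0.61 without set 2 and -0.81 without set 3. Srebf2 had 0.19 with all libraries and 0.78, -0.20 and 0.11 without sets 1, 2 and 3, so its value rests on single sets. Acss2 had -0.49 (-0.57, -0.64 and -0.31 without sets 1, 2 and 3). Fasn had -0.27 (-0.11, -0.53 and -0.24), and Fads2 had 0.58 (0.56, 0.32 and 0.71).

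**Figure D5:**
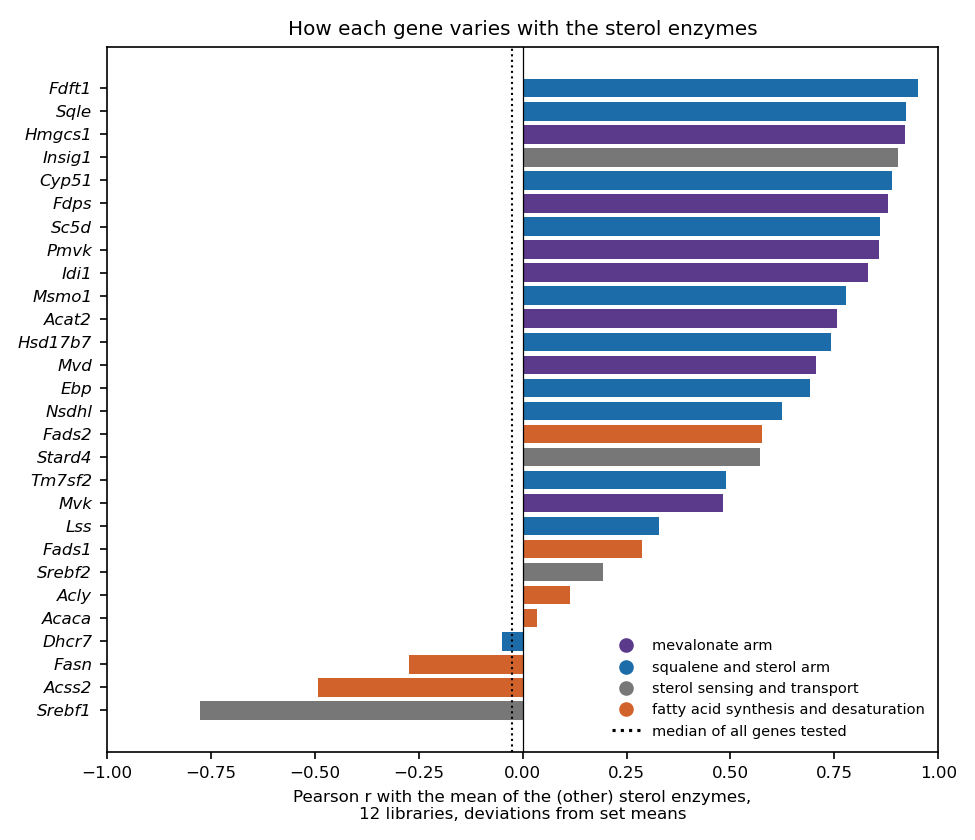
Pearson r of each of the 28 genes with the mean of the sterol enzymes (the gene itself left out) across 12 libraries, after each set's mean was removed, with the median of all genes tested (-0.03) as a dotted line. Insig1 stands among the enzymes at 0.90, and Srebf1, at -0.78, lies lowest.

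Around the members, the genes of neighbouring pathways that passed the threshold did so for TNF-a only. Of all genes, 9.62% passed it for TNF-a in PLKO cells and 3.28% in shTon cells. Of 7 genes of LXR signalling and cholesterol efflux, 1 was higher and 1 lower with TNF-a in PLKO cells, and 2 were higher and 1 lower in shTon cells. Ch25h, the cholesterol hydroxylase whose product restrains SREBP processing, had 212, 541 and 201 normalised reads in shTon_TNF and 14.1, 25.2 and 29.9 in shTon_CTR, against 300.1, 569 and 481 in PLKO_TNF and 45.2, 41.6 and 75.9 in PLKO_CTR. It rose by 3.63 ± 0.32 on the log2 scale in shTon cells (adjusted p = 0.00267, or 3.54 without set 1) and by 3.03 ± 0.24 in PLKO cells (adjusted p = 0.00218). No TNF-a library overlapped with an untreated one. Mylip, which marks the LDL receptor for degradation, changed by -1.07 in shTon cells (adjusted p = 0.0126) and -0.95 in PLKO cells (adjusted p = 0.0216). Abcg1, a cholesterol exporter, rose by 1.15 with TNF-a in shTon cells (adjusted p = 0.0231), at 138 ± 10.1 normalised reads in shTon_TNF and 61.6 ± 2.72 in shTon_CTR (SD, n = 3 each). In PLKO cells it gave 0.97 (adjusted p = 0.0976). Without set 1 the shTon values were -1.17 for Mylip and 1.08 for Abcg1, with both calls held.

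Of 5 other sterol and isoprenoid synthesis genes, Nus1, a subunit of the dolichol synthase, rose with TNF-a in PLKO cells (0.43, adjusted p = 0.0354), a call lost without set 2 or set 3 (adjusted p = 0.155 and 0.108). Of 9 genes of cholesterol uptake and trafficking, the lipoprotein receptor gene Vldlr fell with TNF-a in PLKO cells (-0.85, adjusted p = 0.0315, or 0.0888 without set 2). Of 6 lipid droplet and lipolysis genes tested, the lipase gene Mgll fell with TNF-a in PLKO cells (-2.05 ± 0.31, adjusted p = 0.0152). In the 4 SREBP processing genes, the 12 other lipogenesis genes tested and the 12 fatty acid oxidation genes, 0 passed the threshold in any of the 5 comparisons. In both knockdown comparisons 0 genes of any of these lists passed it. Without the set as a block, all 8 of these TNF-a calls were lost (adjusted p from 0.104 for Ch25h to 0.805 for Nus1 in PLKO cells, and from 0.126 for Ch25h to 0.901 for Mylip in shTon cells). Without the trend, 5 were lost, those of Nus1, Vldlr, Mylip and Mgll in PLKO cells and that of Mylip in shTon cells. With all 12 libraries in 1 fit, 3 were lost, those of Nus1 (adjusted p = 0.149) and Vldlr (adjusted p = 0.0503) in PLKO cells and that of Abcg1 (adjusted p = 0.083) in shTon cells. Cell cycle genes were lower by value in 19 of 20 for knockdown without TNF-a and in 20 of 20 with it, at median log2 fold changes of -0.42 and -0.48, with 0 past the threshold in either. Of all genes, 49.0% and 47.6% were lower by value, at medians of 0.01 and 0.02. Whether the lower cell cycle values bear on the lower sterol enzyme values was not tested.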

How the data were processed

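Total RNA of 12 libraries was sequenced. Reads were aligned with Novoalign 2.08.01 to rat build rn5 and the submitters' processing notes also name DESeq2, with no version. The 3 deposited tables, each of 2 groups, hold normalised values (a signal: reads divided by a size factor), the authors' log2 fold changes and the authors' p-values, raw and adjusted. Read counting, strand and the treatment of reads shared between gene copies are not given in the sources used for these values. Fdps and Cyp51, whose human counterparts have processed pseudogenes, are therefore uncertain.

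From the deposited values, whole reads were recovered for 100% of values (within 0.001 read), and counts of these reads over the 12899 genes in all 3 tables were rescaled together (median of ratios) for levels and for TNF-a in shTon cells, the interaction and the sets. The other 3 comparisons used the deposited values. The main test was limma 3.58.1 (R 4.3.3) on log2(value + 1) with a mean-variance trend, the set as a block, a mean of at least 10 normalised reads, and Benjamini-Hochberg adjustment over all genes at 0.05. The set numbers come from the labels, and same-numbered libraries deviated together: the correlation of deviations from group means was 0.609 to 0.889 over 18 same-set pairs and -0.741 to 0.18 over 36 others. No 2 libraries of a group agreed within counting noise (chi-square per degree of freedom 72.4 to 166). Alternatives included edgeR 4.0.16 and DESeq2 1.42.0 on the recovered reads. The test was also run on simulated data with known changes. The simulated set effects were the same in every group, which the block takes out, so the run does not show how the test performs on these data.

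Members, lists and tests were chosen with earlier results of these data known. Values per library are given for members past the threshold, the 3 members of each role group with the smallest p over the 3 deposited pairs, and Srebf1, Srebf2, Insig1, Fasn and Hmgcs1. Of other lists, genes past the threshold are named. The list of other sterol synthesis genes was shortened after the values were seen, since some items are not reported here. A row is used for every member with values, and gene symbols are those of the tables.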

Additional observations from a re-analysis of the deposited data

How the results depend on the processing

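Of the 112 values of members in the 4 pairwise comparisons, 44 changed sign when a set was left out, the largest of them 0.31 in size on the log2 scale with all sets. The 23 member results with an unadjusted p under 0.05 and the 8 calls of neighbouring pathways kept their direction in all 372 refits. They were chosen for a small p in these same libraries, which makes a kept direction likely, and the other member results were not among them. Of these values 347 also kept their side of the threshold, 23 lost a call and 2 gained one. Of the 23 member results only that of Acss2 with TNF-a in PLKO cells was called with all sets. The losses could thus fall only on Acss2 and the 8 pathway calls, and the other member results counted as kept while they stayed uncalled. Without the block that pairs libraries by set, the genes called numbered 0 for TNF-a in PLKO cells (0 members), 6 for TNF-a in shTon cells, and 0 for knockdown without and with TNF-a. Without the mean-variance trend they numbered 55 (0 members), 143, 0 and 0. A pseudocount of 0.1 gave 0 members for TNF-a in PLKO cells, where its total over all genes is not given. It gave 2 genes for knockdown without TNF-a and 12 with it, and a pseudocount of 5 gave 23 genes for knockdown without TNF-a. DESeq2 called 613 genes for TNF-a in shTon cells, 403 for knockdown without TNF-a and 363 with it, and 0 members in these. All 12 libraries in 1 fit gave 696 genes for TNF-a in PLKO cells, 3 for knockdown without TNF-a and 444 with it. Leaving out 1 set at a time gave 545 to 1410 genes and 0 to 4 members for TNF-a in PLKO cells, 317 to 1105 and 0 to 2 in shTon cells, 12 to 283 and 0 to 1 for knockdown without TNF-a, and 32 to 488 and 0 for knockdown with TNF-a. The interaction called 0 genes under every alternative run. Differences among sets were found for 5548 to 5918 genes. Depth limits Tm7sf2, with 18.1 to 63.8 normalised reads per library and standard errors of 0.31 and 0.37 in the knockdown comparisons.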
